A study of Mus musculus with 9 samples.

Results

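Collagens are the triple-helical proteins of the extracellular matrix, and each chain has its own gene. Fibrillar collagens build the banded fibrils of connective tissue, basement membrane and beaded-filament collagens form the networks under and around cells, and FACIT collagens (fibril-associated collagens with interrupted triple helices) sit on the surface of fibrils. Transmembrane collagens stay anchored in the cell membrane. Tumour necrosis factor alpha (TNF), an inflammatory cytokine, is known for lowering type I collagen transcription in cultured fibroblasts, the main collagen producers of connective tissue; macrophages are not known as major producers of fibrillar collagen.

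The collagen genes were taken as every gene whose symbol reads Col, a number, a and a number, which gave 44 genes of the 56289 in the gene table. They were grouped by chain type into 11 fibrillar, 6 basement membrane, 6 beaded-filament, 9 FACIT and 4 transmembrane genes, with 8 others (Col7a1, Col8a1, Col8a2, Col10a1, Col15a1, Col18a1, Col26a1 and Col28a1). Poly-A RNA of 9 libraries had been sequenced, 3 in each of 3 groups. Cells of the TNF+WBG group had TNF-α together with WBG (Wang Bi granules, a herbal preparation) for 24 h, cells of the TNF group had TNF-α for 24 h, and the untreated cells carry no time in the labels, so that time in culture and TNF-α cannot be told apart in any comparison with them. The labels give no dose and describe every library as RAW264.7, a macrophage-like line from BALB/c mice, that is, 1 cell line throughout. They do not say whether the replicates were separate cultures, so each p-value reflects the spread among these libraries alone, which may be technical.

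Levels are FPKM, fragments per kilobase of gene model and per M (mega) fragments, as the authors deposited them. The deposited table holds no counts. FPKM summed to between 427781 and 436809 per library, and the spacing of low values corresponds to 18.9 to 26.0 M fragments if 1 step is 1 fragment. The marker genes went against the labelled cell type. Ptprc, Itgam and Adgre1, from the list of 10 macrophage markers, were listed at 0 in all 9 libraries. Of the 10 macrophage markers, 2 (Cd68 and Cd14) averaged 1 FPKM or more. Of 10 fibroblast markers, 8 did so, although Lum was listed at 0 and Thy1 did not pass 0.0687 FPKM. The Schwann cell markers Sox10 and S100b did so too, as did Sox9 alone of the 4 chondrocyte markers and none of the 4 epithelial or 4 endothelial markers. The libraries are therefore called by their treatments, with no cell type attached. Summed macrophage markers ran from 7.85 to 10.3 FPKM in TNF+WBG libraries, from 6.93 to 7.93 in TNF libraries and from 5.96 to 7.29 in untreated libraries. Summed fibroblast markers ran from 2720 to 2778, from 2636 to 2870 and from 2666 to 2864 FPKM in TNF+WBG, TNF and untreated libraries. Of single markers, Cd14 was called higher in TNF+WBG than in untreated libraries (log2 0.45, adjusted p = 0.0254), a call lost without untreated 2 or 3 or TNF+WBG 1 or 2 (adjusted p up to 0.0919). Called lower in the same comparison were Postn (log2 -0.56), Pdgfrb (-0.54), S100b (-0.82) and Sox9 (-0.60), and leaving out any 1 library ended none of these 4 calls. In TNF against untreated libraries Acta2 was called higher (log2 0.34), while Postn (-0.59), Pdgfrb (-0.51), Vim (-0.28), S100b (-1.06) and Sox9 (-0.63) were called lower. The call of Vim was lost on leaving out any 1 of 7 libraries, all but untreated 3 and TNF 2 (adjusted p up to 0.127). The part of these markers in the collagen results was not tested. In bulk libraries like these, fewer cells of a type and less RNA per cell cannot be told apart.

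Promoter sequences were read for collagen genes picked by the size of their log2 change of FPKM + 1 under TNF. They were the 3 genes with the largest rises (by ratio of mean FPKM, Col9a3 stood second) and the one with the largest fall. The start region that Col4a1 and Col4a2 share was read too. Each window runs 5′ to 3′ on the gene's strand from 250 bases before to 50 bases after the RefSeq start site (build GRCm38.p6), and capitals mark a match to one of 5 short motifs on either strand. The windows are chr9:20815018-20815317 for Col5a3 on the minus strand, chr10:76725995-76726294 for Col6a1 on the minus strand, chr16:57754688-57754987 for Col8a1 on the minus strand and chr4:63215162-63215461 for Col27a1 on the plus strand.
Col5a3: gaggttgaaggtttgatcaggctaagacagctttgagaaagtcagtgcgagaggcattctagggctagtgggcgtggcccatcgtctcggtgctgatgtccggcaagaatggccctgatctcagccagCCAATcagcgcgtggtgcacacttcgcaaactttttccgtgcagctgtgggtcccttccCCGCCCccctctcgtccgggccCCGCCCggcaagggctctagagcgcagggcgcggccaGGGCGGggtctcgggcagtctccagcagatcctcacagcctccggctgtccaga
Col6a1: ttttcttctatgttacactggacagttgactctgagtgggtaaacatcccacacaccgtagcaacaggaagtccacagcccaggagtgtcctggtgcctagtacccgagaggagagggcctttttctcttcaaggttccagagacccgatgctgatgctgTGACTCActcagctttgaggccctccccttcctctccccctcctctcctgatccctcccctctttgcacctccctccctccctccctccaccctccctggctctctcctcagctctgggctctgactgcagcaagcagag
Col8a1: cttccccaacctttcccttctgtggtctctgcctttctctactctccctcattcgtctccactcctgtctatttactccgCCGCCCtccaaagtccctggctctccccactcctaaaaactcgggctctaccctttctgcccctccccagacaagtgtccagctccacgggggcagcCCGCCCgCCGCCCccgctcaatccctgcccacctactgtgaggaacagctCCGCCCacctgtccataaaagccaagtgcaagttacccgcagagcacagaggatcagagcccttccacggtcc
Col27a1: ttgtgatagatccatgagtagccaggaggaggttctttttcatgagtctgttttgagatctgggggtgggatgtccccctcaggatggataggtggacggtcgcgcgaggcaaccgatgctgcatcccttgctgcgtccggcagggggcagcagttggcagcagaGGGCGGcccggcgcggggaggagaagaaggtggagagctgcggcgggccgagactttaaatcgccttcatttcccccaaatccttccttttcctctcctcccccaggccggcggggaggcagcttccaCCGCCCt

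The motifs searched were the TATA box TATAAA, the CCAAT box CCAAT, the GC box GGGCGG, the AP-1 pattern TGANTCA and an NF-kB pattern of GGG, any 2 bases and TTTCC. All were read on both strands, and no match overlaps another in the 4 windows printed above. The Col6a1 window held the AP-1 pattern, the site of Fos and Jun proteins, 90 bases before the start, and no other motif. It was the only one of 38 windows of 35 collagen genes with that pattern, which 7.81% of all 32851 windows in the table hold. The Col5a3 window held a CCAAT box 122 bases before the start and GC boxes 63, 41 and 4 bases before it. The Col8a1 window held GC boxes 170, 73, 66 and 23 bases before the start. The Col27a1 window held GC boxes 85 bases before and 43 bases after the start. GC boxes were in 23 of the 38 collagen windows (60.5%), against 35.7% of all windows. TATA boxes were in 5 (13.2%) against 13.6%, CCAAT boxes in 13 (34.2%) against 37.4%, and the NF-kB pattern in 1 (2.63%, Col17a1) against 1.63%. A match is only a match of letters, and a window without one says only that these letters are not in it.

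Several collagen genes lie side by side. Among RefSeq protein-coding genes 8 pairs of collagen genes were direct neighbours, 3 of them head to head (Col4a1 with Col4a2 on chromosome 8, Col4a4 with Col4a3 on chromosome 1, and Col4a6 with Col4a5 on chromosome X). The windows of Col4a1 and Col4a2 share 78 bases at chr8:11312777-11312854, shown here on the plus strand, because both start sites lie in this stretch. Capitals mark the 22 bases from the Col4a2 start to the Col4a1 start, which both genes transcribe, on opposite strands.
Col4a1 and Col4a2: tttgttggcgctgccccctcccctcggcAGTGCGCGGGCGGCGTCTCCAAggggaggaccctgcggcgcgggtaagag
Col6a2 and Col6a1 follow each other on one strand of chromosome 10, and Col3a1 and Col5a2 lie tail to tail on chromosome 1.

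**Figure D1:**
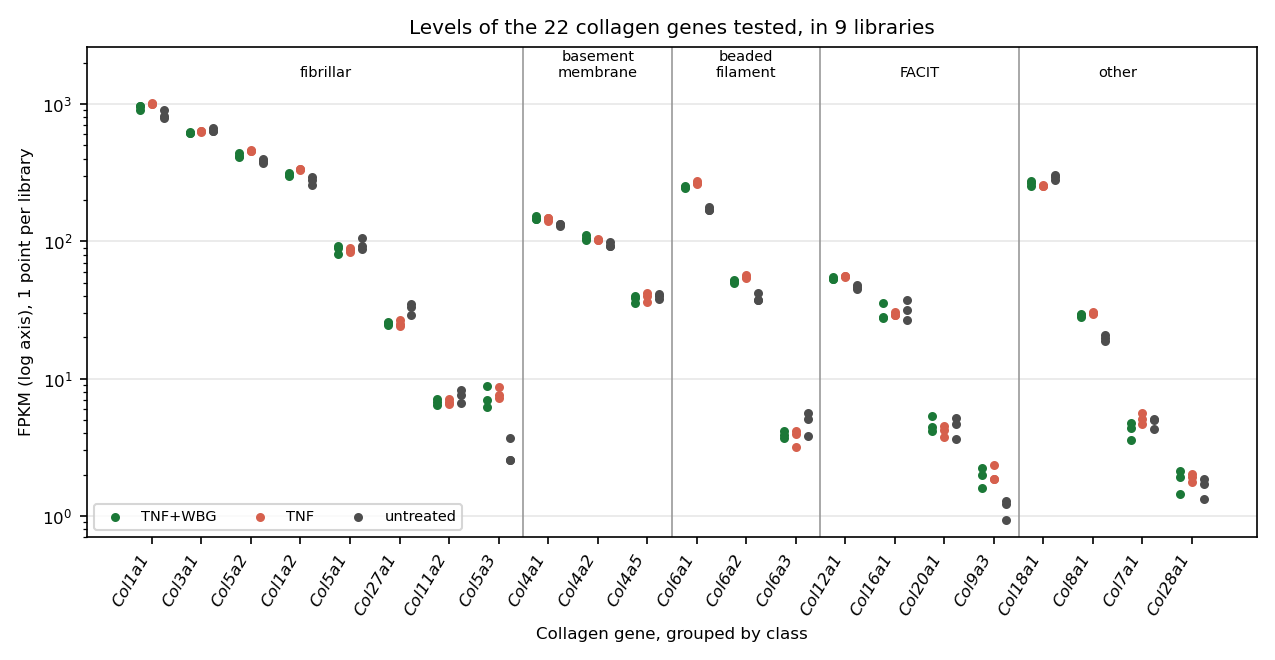
FPKM of the 22 tested collagen genes (log axis) in each of the 9 libraries, by class, with TNF+WBG libraries, then TNF, then untreated. The genes span from about 1 FPKM (Col9a3) to 1021 FPKM (Col1a1 in TNF replicate 3).

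Collagen RNA was abundant and came from few genes. Col1a1 alone made up 27.6% of all collagen FPKM over the 9 libraries, and Col1a1, Col3a1, Col5a2 and Col1a2 together made up 67.8%. Adding Col18a1 and Col6a1 brought the share to 82.6%. All collagen genes summed to 3411 ± 76.3 FPKM in TNF+WBG, 3554 ± 14.1 in TNF and 3165 ± 143 in untreated libraries (SD, n = 3 each). This was 0.762 to 0.809%, 0.814 to 0.826% and 0.702 to 0.778% of all FPKM in TNF+WBG, TNF and untreated libraries, so that the TNF libraries lay above both other groups without overlap.

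Of the 44 genes, 22 reached the filter of 1 FPKM in at least 3 of the 9 libraries, whatever the group, and were tested; the other 22 stayed under 1 FPKM in every library. The tested ones were 8 of 11 fibrillar genes, 3 of 6 basement membrane genes, 3 of 6 beaded-filament genes, 4 of 9 FACIT genes, 0 of 4 transmembrane genes and 4 of 8 others. By mean level in untreated libraries the order ran Col1a1, Col3a1, Col5a2, Col18a1, Col1a2, Col6a1, Col4a1, Col5a1, Col4a2, Col12a1, Col4a5, Col6a2, Col27a1, Col16a1, Col8a1, Col11a2, Col6a3, Col7a1, Col20a1, Col5a3, Col28a1 and Col9a3. Of the 21 steps in this order, 7 joined genes whose untreated libraries overlapped. These were Col18a1 with Col1a2, Col5a1 with Col4a2, Col4a5 with Col6a2, Col27a1 with Col16a1, and the run from Col6a3 over Col7a1 and Col20a1 to Col5a3. Levels of different genes depend on the gene models behind the FPKM, which the labels do not name.

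Under TNF, 10 of the 22 tested collagen genes rose and 2 fell against untreated cells. A change was called where limma's moderated test on log2(FPKM + 1) gave a p under 0.05 after Benjamini-Hochberg adjustment over all 13026 genes tested. Among all tested genes, 6.43% were called higher and 4.21% lower. The genes that rose were Col1a1, Col1a2, Col5a2 and Col5a3 of the fibrillar class, Col4a1 of basement membranes, Col6a1 and Col6a2 of beaded filaments, Col9a3 and Col12a1 of the FACIT class, and Col8a1. The genes that fell were Col27a1 and Col18a1. The median log2 fold change was 0.12 over the 22 genes and 0.00 over all tested genes, and the median absolute one was 0.22 against 0.11. Fold changes on this scale understate the change of genes near 1 FPKM; fold values below are ratios of mean FPKM. Apart from Col5a3 and Col9a3, no called collagen gene moved by more than 1.55-fold.

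**Figure D2:**
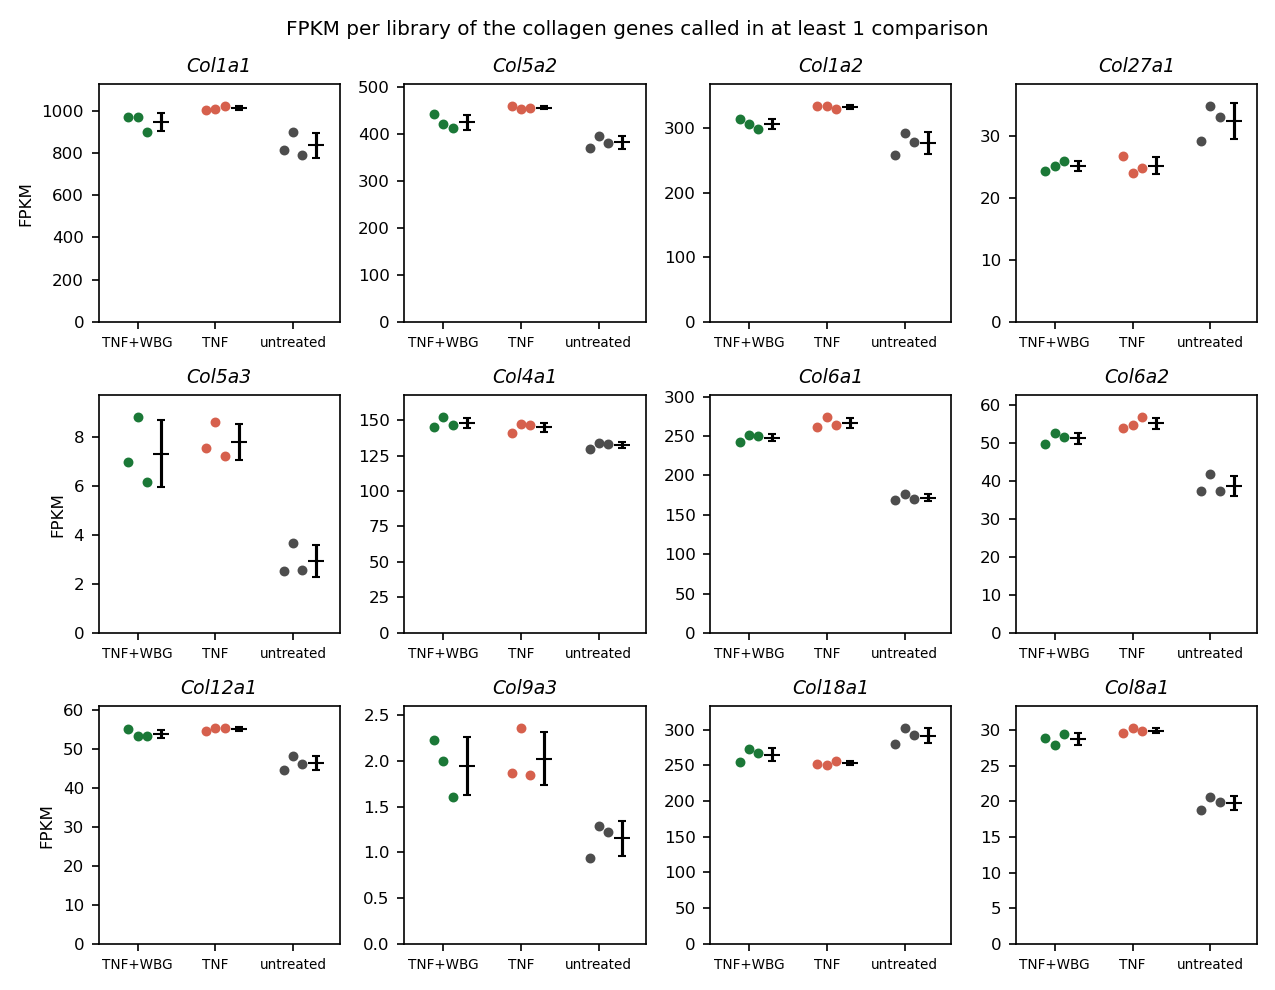
FPKM in each library for the 12 collagen genes called in at least 1 comparison, 1 panel a gene with a linear axis from 0; points are libraries, and bars give mean ± SD of the TNF+WBG, TNF and untreated groups (n = 3 each). In the Col6a1 panel all TNF+WBG (242 to 252 FPKM) and TNF (262 to 274) libraries lie above the untreated ones (169 to 177).

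Type I collagen, the main protein of bone, skin and tendon fibrils, rose modestly in both of its chains. Col1a1 (ENSMUSG00000001506) stood at 972, 968 and 899 FPKM in TNF+WBG libraries, at 1004, 1007 and 1021 in TNF libraries and at 815, 901 and 791 in untreated libraries. Every TNF library was above every untreated one, and TNF+WBG libraries reached from just under the highest untreated library to just under the lowest TNF one. The change under TNF was 1.21-fold (log2 0.28 ± 0.05 SE, adjusted p = 0.00912). Col1a2 (ENSMUSG00000029661) had 315, 306 and 299 FPKM with TNF+WBG, 334, 334 and 329 with TNF, and 259, 293 and 278 without treatment. Its groups did not overlap, with TNF highest, and it rose 1.20-fold under TNF (log2 0.27 ± 0.05, adjusted p = 0.00587). This call was lost when libraries were quantile-normalised (adjusted p = 0.236). The ratio of Col1a1 to Col1a2 was 3.09 ± 0.0741 in TNF+WBG, 3.04 ± 0.0542 in TNF and 3.02 ± 0.161 in untreated libraries, with overlapping values.

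Type III collagen, the fibril partner of type I in soft tissues, had no called change. Col3a1 (ENSMUSG00000026043) had 614, 622 and 613 FPKM in TNF+WBG, 625, 638 and 631 in TNF and 633, 668 and 639.6 in untreated libraries. All TNF+WBG libraries and 2 of 3 TNF libraries lay below the untreated range, by a few FPKM in the TNF ones, and the adjusted p was 0.521 under TNF and 0.199 under TNF+WBG. Col1a1 over Col3a1 was 1.53 ± 0.0608 in TNF+WBG, 1.60 ± 0.0210 in TNF and 1.29 ± 0.0565 in untreated libraries.

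Type V collagen, which limits fibril diameter, changed in 2 of its 3 chains. Col5a3 (ENSMUSG00000004098), the least abundant chain, gave the largest change of any collagen gene. It had 6.997, 8.83 and 6.18 FPKM in TNF+WBG libraries, 7.58, 8.62 and 7.23 in TNF libraries, and 2.55, 3.69 and 2.56 in untreated libraries. Both treated groups lay wholly above the untreated one, and the rise under TNF was 2.66-fold (log2 1.17 ± 0.14, adjusted p = 0.000981). Col5a2 (ENSMUSG00000026042) had 442, 421 and 412 FPKM with TNF+WBG, 459.6, 454 and 455 with TNF, and 369.7, 397 and 382 without treatment. The 3 groups did not overlap, and it rose 1.19-fold under TNF (log2 0.25 ± 0.04, adjusted p = 0.00242). Col5a1 (ENSMUSG00000026837), the chain found in most type V molecules, had 88.9, 92.0 and 80.7 FPKM with TNF+WBG, 86.9, 89.8 and 84.0 with TNF and 88.0, 105 and 92.3 without treatment. Its groups overlapped and it was not called (log2 -0.12 ± 0.07, adjusted p = 0.338). Col5a1 over Col5a3 was accordingly 12.1 ± 1.44 in TNF+WBG, 11.2 ± 0.649 in TNF and 33.0 ± 4.01 in untreated libraries. Col5a2 over Col5a1 was 4.88 ± 0.279, 5.25 ± 0.184 and 4.04 ± 0.227 in TNF+WBG, TNF and untreated libraries.

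Col27a1 (ENSMUSG00000045672), a fibrillar collagen best known from cartilage, went the other way. It had 24.4, 25.2 and 26.0 FPKM in TNF+WBG libraries, 26.7, 24.0 and 24.9 in TNF libraries, and 29.2, 34.8 and 33.1 in untreated libraries. Both treated groups lay below the untreated one, and it fell to 0.778 of the untreated mean under TNF (log2 -0.35 ± 0.07, adjusted p = 0.0125). Sox9, the chondrocyte transcription factor in the marker list, was also lower, at a mean of 6.62 FPKM in TNF against 10.8 FPKM in untreated libraries (log2 -0.63, adjusted p = 0.000167), while Acan and Matn1 were listed at 0; its part in the fall of Col27a1 was not tested. Col11a2, a minor chain of cartilage fibrils, averaged 6.78 ± 0.353 FPKM in TNF+WBG, 6.78 ± 0.292 in TNF and 7.46 ± 0.783 in untreated libraries and was not called (adjusted p = 0.409). The fibrillar genes together summed to 2422 ± 68.4, 2558 ± 5.36 and 2279.6 ± 113 FPKM in TNF+WBG, TNF and untreated libraries. They made up 71.0%, 72.0% and 72.0% of collagen FPKM in the same groups.

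Type VI collagen, which builds the beaded filaments around cells, showed the clearest rise in 2 abundant chains. Col6a1 (ENSMUSG00000001119) had 242, 252 and 249.7 FPKM in TNF+WBG libraries, 262, 274 and 264 in TNF libraries, and 169, 177 and 169.6 in untreated libraries. The 3 groups stood apart, and it rose 1.55-fold under TNF (log2 0.63 ± 0.03, adjusted p = 5.57e-06, the smallest of any collagen gene). Col6a2 (ENSMUSG00000020241) had 49.7, 52.6 and 51.6 FPKM with TNF+WBG, 53.9, 54.9 and 56.9 with TNF and 37.3, 41.9 and 37.3 without treatment. Its groups also stood apart, with a 1.42-fold rise under TNF (log2 0.50 ± 0.05, adjusted p = 0.000368). Col6a3 (ENSMUSG00000048126), the large chain that completes the usual type VI molecule, was scarce and was not called. It had 3.86, 4.14 and 3.69 FPKM with TNF+WBG, 4.15, 3.16 and 3.96 with TNF, and 3.85, 5.07 and 5.62 without treatment, so that one untreated library lay within the treated range (log2 -0.29 ± 0.13, adjusted p = 0.199). Col6a1 over Col6a3 was 63.7 ± 3.54 in TNF+WBG, 72.2 ± 12.8 in TNF and 36.3 ± 6.95 in untreated libraries. Col6a4, an alternative to it in mice, was under the filter, at 0.501, 0.491 and 0.402 FPKM with TNF+WBG, 0.507, 0.532 and 0.416 with TNF and 0.0954, 0.297 and 0.233 without treatment. Col6a5 and Col6a6 did not pass 0.0511 and 0.0131 FPKM in any library. The beaded-filament genes summed to 304 ± 6.37 FPKM in TNF+WBG, 326 ± 6.16 in TNF and 216 ± 7.41 in untreated libraries, which is 8.91%, 9.18% and 6.81% of collagen FPKM.

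**Figure D3:**
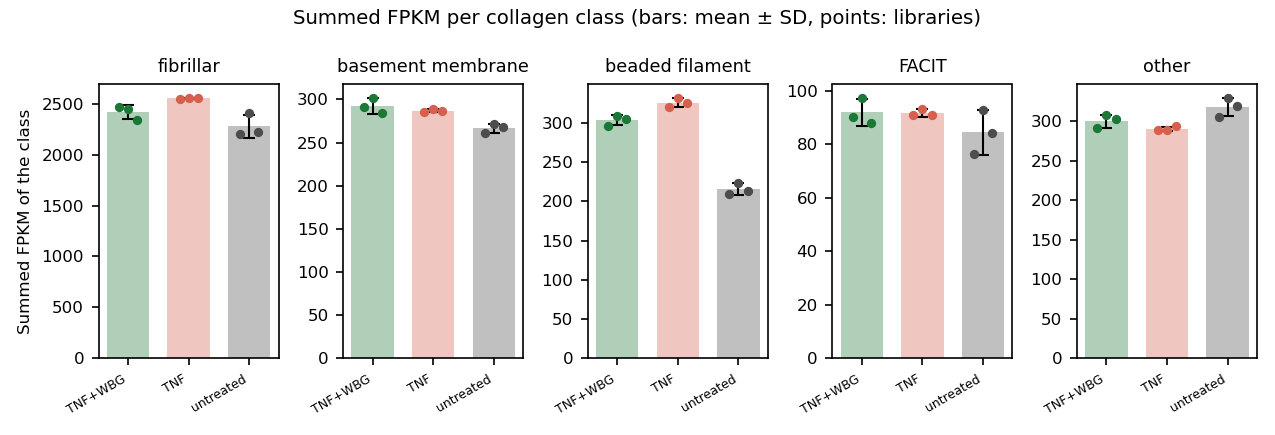
Summed FPKM of each collagen class but the transmembrane one, 1 panel a class; bars are mean ± SD, points are libraries, and groups run TNF+WBG, TNF, untreated. The beaded-filament sums of TNF+WBG (297 to 309 FPKM) and TNF (320.3 to 333) lie above the untreated ones (210.1 to 224).

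Type IV collagen, the network of basement membranes, changed little. Col4a1 (ENSMUSG00000031502) had 145, 152 and 146 FPKM with TNF+WBG, 141, 147 and 147 with TNF and 129.7, 134 and 133 without treatment. Both treated groups lay above the untreated one, and the rise under TNF was 1.09-fold (log2 0.13 ± 0.03, adjusted p = 0.0417). It lost its call under 11 of 19 alternatives, among them leaving out untreated 1, 2 or 3, TNF 2 or 3, or TNF+WBG 1 or 3 (adjusted p up to 0.132). Col4a2 (ENSMUSG00000031503), its head-to-head neighbour and partner chain, had 106, 111 and 102 FPKM with TNF+WBG, 102, 101 and 104 with TNF and 91.7, 99.6 and 92.4 without treatment. All treated libraries were above all untreated ones, but it was not called under TNF (log2 0.12 ± 0.04, adjusted p = 0.143). The ratio of Col4a1 to Col4a2 was 1.39 ± 0.0372 in TNF+WBG, 1.41 ± 0.0361 in TNF and 1.40 ± 0.0511 in untreated libraries. Their gene models share exon bases, 0.29% of those of Col4a1 and 0.98% of those of Col4a2 (Col4a2 also shares some with Gm15419). Col4a5, a chain of kidney and smooth muscle basement membranes, had 40.1, 38.7 and 35.6 FPKM with TNF+WBG, 42.3, 40.2 and 35.8 with TNF and 39.8, 37.7 and 41.6 without treatment. Its groups overlapped throughout, and it was not called (log2 -0.01, adjusted p = 0.947 under TNF). Its head-to-head neighbour Col4a6 did not pass 0.0491 FPKM, and Col4a3 and Col4a4 did not pass 0.0356 and 0.180 FPKM.

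Among the FACIT genes, Col12a1 and Col9a3 rose. Col12a1 (ENSMUSG00000032332), which coats type I fibrils, had 55.2, 53.4 and 53.5 FPKM with TNF+WBG, 54.7, 55.5 and 55.5 with TNF, and 44.7, 48.4 and 46.3 without treatment. All treated libraries lay above all untreated ones, and the rise under TNF was 1.19-fold (log2 0.24 ± 0.04, adjusted p = 0.00377). Col9a3 (ENSMUSG00000027570), a chain of the type IX collagen of cartilage, was near the filter at 2.23, 2.00 and 1.60 FPKM with TNF+WBG, 1.87, 2.36 and 1.85 with TNF, and 0.936, 1.29 and 1.22 without treatment. The groups did not overlap with the untreated one, and the rise was 1.76-fold under TNF (log2 0.49 ± 0.12, adjusted p = 0.0283). It lost this call when untreated 1 or 3 or any of the 3 TNF libraries was left out (adjusted p up to 0.0959), and 6.07% of its exon bases are shared with Tcfl5 on the opposite strand. Its partner chains stayed under the filter. Col9a2 had 0.516, 0.838 and 0.438 FPKM with TNF+WBG, 0.601, 0.596 and 0.571 with TNF, and 0.103, 0.292 and 0.267 without treatment. Col9a1 did not pass 0.282 FPKM. Col16a1, an interstitial collagen, had 27.8, 35.7 and 28.3 FPKM with TNF+WBG, 29.2, 30.3 and 28.9 with TNF and 26.8, 37.5 and 31.6 without treatment, with overlapping groups. Col20a1, a lower-level FACIT gene, averaged 4.63 ± 0.614, 4.18 ± 0.386 and 4.48 ± 0.774 FPKM in TNF+WBG, TNF and untreated libraries. Neither was called (adjusted p = 0.680 and 0.774 under TNF).

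Of the remaining collagens, Col8a1 rose and Col18a1 fell. Col8a1 (ENSMUSG00000068196), a short-chain collagen that forms networks under endothelia and in vessel walls, had 28.9, 27.9 and 29.5 FPKM in TNF+WBG libraries, 29.6, 30.3 and 29.9 in TNF libraries, and 18.8, 20.6 and 19.9 in untreated libraries. Both treated groups stood above the untreated one, and the rise under TNF was 1.51-fold (log2 0.57 ± 0.04, adjusted p = 6.35e-05). Its partner Col8a2 did not pass 0.00886 FPKM. Col18a1 (ENSMUSG00000001435), the heparan sulfate-bearing basement membrane collagen whose end fragment is endostatin, had 255, 273 and 267 FPKM with TNF+WBG, 252, 251 and 257 with TNF, and 280.1, 302 and 292 without treatment. All treated libraries lay below all untreated ones, and it fell to 0.868 of the untreated mean under TNF (log2 -0.20 ± 0.04, adjusted p = 0.0102). Col7a1, the collagen of the anchoring fibrils of skin, averaged 4.23 ± 0.608, 5.12 ± 0.470 and 4.78 ± 0.409 FPKM in TNF+WBG, TNF and untreated libraries and was not called (adjusted p = 0.688 under TNF). Col28a1, known from mouse peripheral nerve, averaged 1.83 ± 0.347, 1.89 ± 0.130 and 1.63 ± 0.263 FPKM in the same groups and was not called (adjusted p = 0.516). Beside it, the Schwann cell marker Sox10 ran from 77.0 to 101 FPKM over the 9 libraries.

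**Figure D4:**
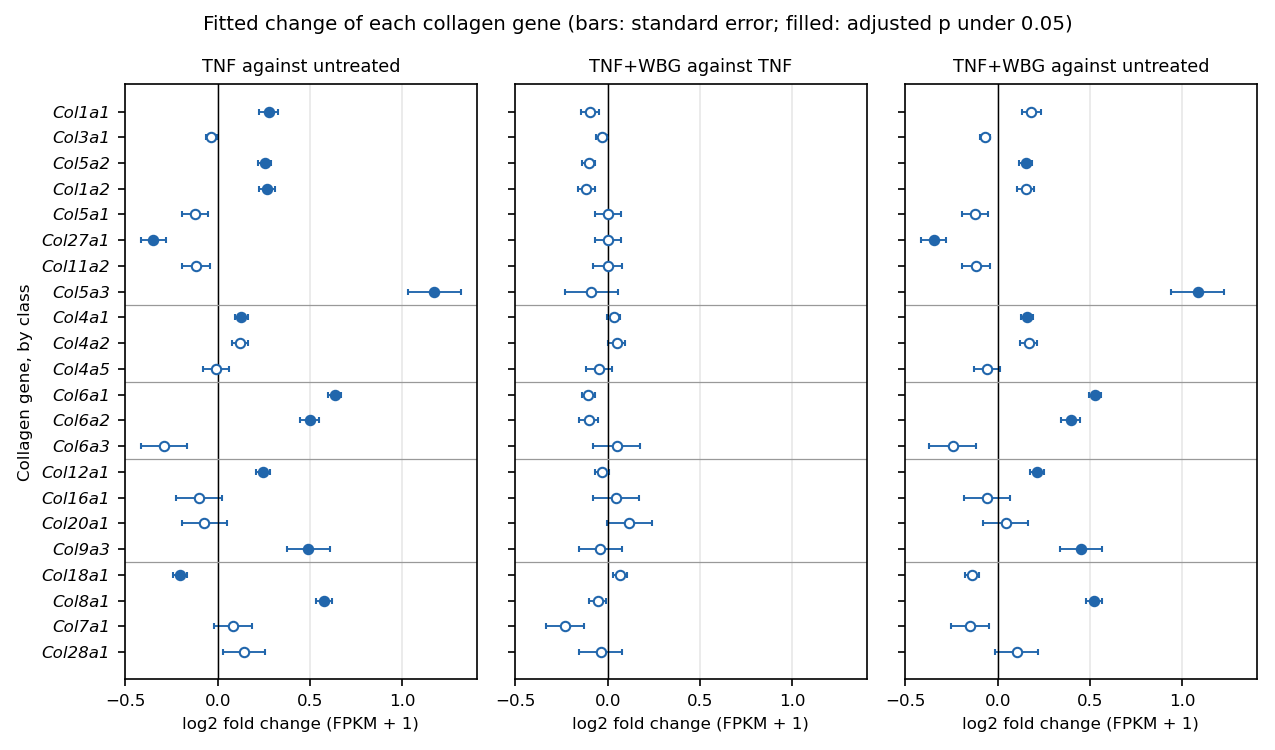
Log2 fold change with its standard error for the 22 tested collagen genes in TNF against untreated (left), TNF+WBG against TNF (middle) and TNF+WBG against untreated (right), by class; filled points have an adjusted p under 0.05. In TNF+WBG against TNF all points lie between -0.23 and 0.12 and none is filled.

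Adding WBG to TNF called no collagen gene in either direction. Among all tested genes, 0.0691% were called higher and 0.0307% lower in TNF+WBG against TNF, 13 genes in all, so that a count of 0 of 22 is near the background. At an unadjusted p under 0.05 from limma, 3 of the 22 passed (Col1a2, Col5a2 and Col6a1, all lower), or 1180 of all 13026 genes (9.06%), and the smallest adjusted p of a collagen gene was 0.468. The log2 fold changes ran from -0.23 for Col7a1 to 0.12 for Col20a1, with a median of -0.04 against 0.00 over all tested genes, and 14 of 22 were below 0. In 7 of the 22 genes (31.8%) every TNF+WBG library was below every TNF library, as in 7.72% of all tested genes. None of the 7 had an adjusted p under 0.05 by limma. They were Col1a1 (log2 -0.10, adjusted p = 0.639), Col3a1 (-0.03, 0.781), Col1a2 (-0.12, 0.508), Col5a2 (-0.10, 0.491), Col6a1 (-0.10, 0.468), Col6a2 (-0.10, 0.610) and Col8a1 (-0.05, 0.768).

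Against untreated cells, 8 of the 22 genes rose and 1 fell with TNF+WBG, where 5.52% of all tested genes were called higher and 3.67% lower. This comparison shares its untreated libraries with the one for TNF, so the calls are not independent. The 8 were Col4a1, Col5a2, Col5a3, Col6a1, Col6a2, Col8a1, Col9a3 and Col12a1, and the 1 was Col27a1. With quantile normalisation the split was 7 higher and 2 lower. Col5a3 was 2.50-fold higher (log2 1.08 ± 0.14, adjusted p = 0.00170), Col6a1 1.44-fold (log2 0.53 ± 0.03, adjusted p = 2.04e-05), Col8a1 1.46-fold (log2 0.52 ± 0.04, adjusted p = 0.000134) and Col6a2 1.32-fold (log2 0.39 ± 0.05, adjusted p = 0.00161). Col12a1 was 1.16-fold higher (log2 0.21 ± 0.04, adjusted p = 0.00840). These 5 were called under all 19 alternatives. Col27a1 stood at 0.778 of the untreated mean (log2 -0.35 ± 0.07, adjusted p = 0.0137), a call lost without untreated 3 (adjusted p = 0.0542) or without TNF+WBG 1 (adjusted p = 0.0534).

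Some calls in this comparison were close to the threshold. Col5a2 (log2 0.15 ± 0.04, adjusted p = 0.0355) lost its call without untreated 1 or 3, without any 1 of the TNF libraries or without TNF+WBG 1 or 2 (adjusted p up to 0.110), and under 12 of 19 alternatives in all. Col4a1 (log2 0.16 ± 0.03, adjusted p = 0.0174) lost it without untreated 1 or TNF+WBG 2 (adjusted p up to 0.0659). Col9a3 (log2 0.45 ± 0.12, adjusted p = 0.0442) lost it without any 1 of the untreated libraries, TNF 1 or 3, or TNF+WBG 1 or 2 (adjusted p up to 0.137), and under 11 of 18 alternatives in all. Among genes not called, Col18a1 (log2 -0.14 ± 0.04, adjusted p = 0.0594) was called lower without untreated 1 (adjusted p = 0.0440), with median-ratio scaling (0.0494) and with quantile normalisation (0.0284). Col1a1 (adjusted p = 0.0633) was called higher without untreated 2 (0.0134) or TNF+WBG 3 (0.0455). Col1a2 (adjusted p = 0.0780) was called higher without untreated 2 (0.0310), and Col4a2 (adjusted p = 0.0528) without untreated 2 (0.0302) or TNF+WBG 3 (0.0452). The median log2 fold change of the 22 genes was 0.13, against 0.00 over all tested genes.

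The 22 genes under the filter included all 4 transmembrane genes and the main cartilage collagen. The highest value among them was 0.848 FPKM, of Col15a1, a basement membrane-associated collagen. The transmembrane genes Col13a1, Col17a1, Col23a1 and Col25a1 summed to 0.464 ± 0.194, 0.390 ± 0.0964 and 0.396 ± 0.0755 FPKM in TNF+WBG, TNF and untreated libraries. Col17a1, the hemidesmosome collagen of epithelia, did not pass 0.343 FPKM, Col23a1 0.283 FPKM and Col25a1 0.0619 FPKM. Col2a1, the main fibrillar collagen of cartilage, did not pass 0.201 FPKM, and Col10a1, the collagen of hypertrophic cartilage, did not pass 0.0675 FPKM. Col11a1 had 0.444, 0.308 and 0.360 FPKM with TNF+WBG, 0.363, 0.420 and 0.261 with TNF, and 0.159, 0.194 and 0.174 without treatment. Col14a1, Col19a1, Col22a1 and Col24a1 did not pass 0.132, 0.0111, 0.0803 and 0.0958 FPKM. Col26a1 was listed at 0 in all 9 libraries. Without the filter on low values, limma called 1 of the 21 fitted genes of this group under TNF (6 at an unadjusted p under 0.05). Of all 31192 genes in that fit, 3.5% were called. The collagen gene called was Col13a1, which was listed at 0 in every TNF+WBG and untreated library and at 0.0299, 0.0423 and 0.0309 FPKM in TNF libraries. It entered that fit only through the TNF libraries, and the other groups showed no spread, so no change is read from this call. By limma without the filter, 0 of the 21 were called in TNF+WBG against TNF (2 at an unadjusted p under 0.05) and 0 in TNF+WBG against untreated cells (4 at an unadjusted p under 0.05). In those comparisons 0.0449% and 3.24% of all genes were called without the filter. The share of all genes with an unadjusted p under 0.05 was not counted in this fit.

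Genes that make, export, process, bind and degrade collagen were read from 6 lists whose genes had been chosen with earlier results of these data known. Under TNF, 9 of their 61 tested entries were higher and 4 lower (18 and 10 at an unadjusted p under 0.05), where 6.43% of all tested genes were called higher, 4.21% lower and 24.0% had an unadjusted p under 0.05. Within the lists, intracellular modification and folding had 2 of 19 tested genes higher and 0 lower (median log2 0.11). Creb3l1, an endoplasmic reticulum-anchored activator of collagen genes, averaged 23.4 ± 0.857 FPKM in TNF+WBG, 26.1 ± 1.81 in TNF and 20.9 ± 0.465 in untreated libraries (log2 0.31 under TNF, adjusted p = 0.00879). Colgalt1, which adds galactose to collagen chains, was the other (log2 0.15, adjusted p = 0.0418) and lost its call on leaving out any 1 of 8 libraries, all but untreated 2 (adjusted p up to 0.135). Serpinh1, the collagen chaperone, averaged 177 ± 41.3, 176 ± 22.99 and 131 ± 1.67 FPKM in TNF+WBG, TNF and untreated libraries and was not called under TNF (log2 0.41, adjusted p = 0.123). Without TNF+WBG 3 it was called higher at the same log2 fold change (adjusted p = 0.0189). That library enters this comparison only through the shared estimate of the spread. Export from the endoplasmic reticulum had 1 of 10 higher and 0 lower (median log2 -0.03), namely Sec24d, a coat subunit for large cargo (log2 0.17, adjusted p = 0.0282), which lost its call without untreated 1 or 3 or TNF 1 or 2 (adjusted p up to 0.0968).

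Outside the cell, processing and crosslinking had 2 of 8 tested genes higher and 0 lower (median log2 0.08). Adamts14, which trims the amino end of procollagen, averaged 40.4 ± 1.56 FPKM in TNF+WBG, 42.3 ± 1.49 in TNF and 27.3 ± 1.01 in untreated libraries (log2 0.61 under TNF, adjusted p = 5.48e-05). Loxl4, a crosslinking oxidase, averaged 4.77 ± 0.831, 5.13 ± 0.213 and 3.11 ± 0.119 FPKM in the same groups (log2 0.58, adjusted p = 0.00632). The collagen-binding matrix list had 0 of 7 higher and 2 lower (median log2 -0.22). Postn, a matricellular protein that binds collagen, averaged 163 ± 1.71 FPKM in TNF+WBG, 160.5 ± 4.31 in TNF and 242 ± 9.14 in untreated libraries (log2 -0.59, adjusted p = 1.31e-05). Matn2, an adaptor of matrix filaments, averaged 74.3 ± 2.09, 68.8 ± 0.934 and 92.7 ± 1.94 FPKM (log2 -0.42, adjusted p = 7.81e-05).

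Receptors and uptake had 2 of 11 tested genes higher and 1 lower (median log2 0.04). Itga2, a collagen-binding integrin chain, averaged 2.27 ± 0.154 FPKM in TNF+WBG, 2.25 ± 0.186 in TNF and 1.37 ± 0.0419 in untreated libraries (log2 0.46 under TNF, adjusted p = 0.00538). Antxr1, a receptor that binds type VI and other collagens, was also higher (log2 0.21, adjusted p = 0.0149) and lost its call without untreated 3 or TNF 3 (adjusted p up to 0.0593). Adgrg1, a receptor for type III collagen, averaged 8.87 ± 0.746, 8.07 ± 0.380 and 15.9 ± 1.04 FPKM in TNF+WBG, TNF and untreated libraries (log2 -0.90, adjusted p = 7.95e-05). Collagenases and gelatinases had 2 of 6 tested genes higher and 1 lower (median log2 0.19), where 6.43% of all tested genes were higher and 4.21% lower. The collagenases Mmp1a, Mmp8 and Mmp13 were under the filter and not tested. They did not pass 0.128, 0.0158 and 0.124 FPKM. Ctsk, also untested, did not pass 0.461 FPKM. Mmp9, a gelatinase, had 2.82, 3.39 and 3.13 FPKM in TNF+WBG libraries, 3.95, 4.22 and 4.25 in TNF libraries and 0.149, 0.167 and 0.231 in untreated libraries (log2 2.12 ± 0.08 under TNF, adjusted p = 8.30e-07). It passed the filter of 1 FPKM only through the treated libraries, where it was high, so its place among the tested genes was not independent of its rise. Ctsb, a lysosomal protease that can cleave collagen, was higher (log2 0.17, adjusted p = 0.00597), and Mmp2, the other gelatinase, was lower at 513 ± 8.36, 523 ± 2.75 and 589 ± 2.25 FPKM in TNF+WBG, TNF and untreated libraries (log2 -0.17, adjusted p = 0.00249).

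In TNF+WBG against TNF, 0 of the 61 tested entries of these 6 lists were called by limma in either direction. Among all tested genes 0.0691% were called higher and 0.0307% lower, so a count of 0 is near the background. At an unadjusted p under 0.05 from limma, 3 entries were higher and 9 lower, a level that 9.06% of all tested genes reached. Sar1a, a GTPase that starts the transport vesicles of the endoplasmic reticulum, had 53.5, 60.2 and 61.5 FPKM in TNF+WBG libraries, 130.04, 71.8 and 133 in TNF libraries, and 125, 126 and 119.98 in untreated libraries. All TNF+WBG libraries were below all others, and TNF 2 stood far below the other 2 TNF libraries. Its log2 fold change against TNF was -0.87 (adjusted p = 0.353), and it was not called. Only leaving out TNF 2, the TNF library nearest to the TNF+WBG ones, gave a call by limma (log2 -1.16, adjusted p = 0.000624). Leaving out any other library gave none. Sar1a was named after its values were seen, so the smaller p shows only how far the result hangs on TNF 2. Against untreated cells, TNF+WBG gave 1 higher and 1 lower of 19 in intracellular modification, 0 and 1 of 10 in export, 3 and 0 of 8 in processing, 0 and 4 of 7 in the matrix list, 1 and 2 of 11 in receptors and uptake, and 3 and 1 of 6 in collagenases and gelatinases, where 5.52% of all tested genes were higher and 3.67% lower. In the matrix list the 4 that fell were Postn, Matn2, Nid2 (a basement membrane linker) and Thbs1 (a matricellular protein). Nid2 averaged 66.1 ± 3.74 FPKM in TNF+WBG, 77.3 ± 0.527 in TNF and 90.6 ± 10.95 in untreated libraries (log2 -0.44 against untreated, adjusted p = 0.00742). Lox, the founding crosslinking oxidase, averaged 24.3 ± 3.61, 20.9 ± 0.874 and 16.5 ± 1.33 FPKM in the same groups (log2 0.52, adjusted p = 0.0128) and lost its call without untreated 3 (adjusted p = 0.0523). Leaving out 1 library moved the count of genes called higher to between 0 and 4 in intracellular modification and to between 1 and 3 in processing and in collagenases.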

How the data were processed

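The collagen genes and all lists were chosen with earlier results of these data known. The values are FPKM per gene as deposited by the authors. Aligner, FPKM program, annotation and build: not given in the sources used here. Of 56289 identifiers, 55144 matched a symbol in GENCODE M21, among them all 44 collagen genes of that annotation. Genes of at least 1 FPKM in at least 3 of 9 libraries were kept (13026). On log2(FPKM + 1), limma 3.58.1 under R 4.3.3 fitted the 3 groups together, with a mean-variance trend and no covariate. P-values are two-sided and Benjamini-Hochberg adjusted over the genes kept; the code was tested on simulated data. Errors beside means are SD (n = 3) and beside log2 values SE. A ratio of mean FPKM is given only where both means reached 1. Depth was inferred from FPKM steps of single-exon genes, of which 24.5 to 27.0% lay within 0.02 of a whole step, against 4% for an even spread; no count was derived. Every collagen gene is accounted for, with each library's value where it was called or averaged at least 10 FPKM. From each list, up to 2 called genes a direction with the largest change under TNF are named; Serpinh1, Sar1a, Nid2, Thbs1 and Lox were chosen after their values were seen. Alternatives changed the pseudocount, filter, scaling, trend and libraries. Ratios between genes are descriptions and were not tested. One marker gene is not reported here.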

Additional observations from a re-analysis of the deposited data

How the results depend on the processing

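Under TNF, 10 collagen genes were called higher and 2 lower; over the alternatives run, the first count ran from 8 to 10, and the second was 2 throughout. Leaving out each library in turn gave 8 to 10 higher and 2 lower. TNF+WBG against TNF gave 0 and 0 under every alternative, with or without each library. Against untreated cells, TNF+WBG gave 8 higher and 1 lower; leaving out each library in turn gave 5 to 10 higher (5 without untreated 1 or TNF+WBG 2) and 0 to 2 lower. Median-ratio scaling and quantile normalisation each gave 2 lower, adding Col18a1 (adjusted p = 0.0494 and 0.0284); the cause was not tested. Over all tested genes, deviations from the group means correlated at -0.0721 to 0.107 between same-numbered libraries. Between differently numbered ones the correlations ran from -0.0963 to 0.0945. Such values over all genes cannot show whether the numbers pair libraries for some genes. In some collagen genes, among them Col3a1, Col5a1, Col5a3 and Col16a1, library 2 was the highest of each group, and in others, such as Col1a1, it was not. With the replicate number as a block the counts were 10 and 2, 0 and 0, and 6 and 1 in the 3 comparisons. The last lacked Col5a2 and Col9a3. Of 454 values of single genes under an alternative, 408 kept direction and side of the threshold, 46 kept only the direction and 0 reversed. These values belong to 24 results, namely every call and Col1a2, Col5a2 and Col6a1 in TNF+WBG against TNF. Genes that gained a call under an alternative (Col1a1, Col1a2, Col4a2 and Col18a1 in TNF+WBG against untreated cells) are not among them. Over all genes, 837 were higher and 549 lower under TNF; leaving out 1 library gave 559 to 782 and 346 to 514 (346 without untreated 3). For TNF+WBG against TNF, 9 and 4 became 6 to 9 and 1 to 5. With FPKM only, depth cannot be turned into counting intervals, and genes under 1 FPKM rest on little signal.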
